A study of Mus musculus with 8 samples.

Results

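The genes described here encode the calpains and their inhibitor, and they were chosen by name from the arrays of gastrocnemius (GAS) muscle: *Capn1*, *Capn2*, *Capn3*, *Capn5*, *Capn6*, *Capn7*, *Capns1* and *Cast*. Each of the 8 symbols was found in 1 row of the deposited table, which holds 22206 rows (probe sets, groups of short probes read as 1 gene). The muscles came from male C57/Bl6j mice, 14 weeks old by the labels. One leg had received an adeno-associated virus (AAV) of serotype 1 with a U6 promoter driving a short hairpin RNA against the transcript of MYTHO (AAV sh-RNA MYTHO), and the opposite leg the same kind of virus with a scrambled hairpin (AAV sh-RNA scrmb), so every muscle analysed carried a virus and a hairpin. Tissue was taken 3 weeks after injection, with 4 arrays per group. The U6 promoter is not restricted to muscle fibres, and the RNA came from pieces of whole muscle, in which fewer cells of a type and less RNA per cell cannot be told apart. The arrays are named by animal, A to D, with 1 array from each leg.

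Calpains are cysteine proteases of the cytosol that are switched on by calcium and cut their substrates at a limited number of sites rather than degrading them fully. The conventional enzymes, calpain 1 and calpain 2, each pair a catalytic subunit with a shared small subunit encoded by *Capns1*, and both are held in check by calpastatin, the product of *Cast*. Calpain 3 is enriched in skeletal muscle, binds titin in the sarcomere and is not held by calpastatin. Its loss causes a limb-girdle muscular dystrophy. In muscle, calpains are known for releasing myofibrillar proteins for turnover and for acting at the plasma membrane after injury.

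The hairpin lowered its target on every array. *Mytho*, listed as D230025D16Rik, had a log2 signal of 11.12 ± 0.26 (SD, n = 4) in scrmb muscle and 8.31 ± 0.33 (SD, n = 4) in MYTHO muscle, which is -2.81 on the log2 scale (limma adjusted p 0.00044). Log2 fold changes are given throughout as MYTHO minus scrmb, and the limma adjustment runs over all 22206 rows. Median log2 signals of the arrays lay between 6.39 and 6.47. Muscle genes had group means of 18.12 to 19.93, at or close to the highest signal in the table of 19.93. At that level the arrays can hardly register a further gain. These genes were *Acta1* and *Ckm* of skeletal fibres in general, and *Mylpf*, *Tnnt3*, *Tnni2*, *Pvalb* and *Myh4* of fast fibres. Along the main axis of variation between arrays (28.2% of the variance) scrmb D scored 3.31, nearer to the MYTHO arrays at 11.7 to 40.4 than to the other scrmb arrays at -45.4 to -25.7, so *Capn1*, *Capn2*, *Capn3*, *Capn5*, *Capn6* and *Cast* are given without it as well. Genes outside the family, other than the target, were not refitted without it.

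None of the 8 genes passed a limma adjusted p under 0.05, which 0.027% of all rows did. The threshold that the study used for its heatmap, 2-fold together with an unadjusted p below 0.05, was met by none of them and by 1.51% of all rows. At an unadjusted p under 0.05 alone there was 1 of the 8, *Capn5*, against 12.4% of all rows, and *Capn5* was also the only one whose groups did not overlap, against 6.46% of all rows. With 8 genes, 1 gene is what a share near these backgrounds gives, so neither count is a result about this family. The median log2 fold change of the 8 genes was -0.04, beside -0.005 over all rows, with 3 genes above 0 and 5 below. The median size of change without regard to sign was 0.14 for the 8 genes and 0.20 for all rows. How narrow the limits on these changes were differs from gene to gene: the limma 95% interval stayed within a 2-fold change in either direction for 7 of the 8 genes and reached past it for *Capn1*, and it stayed within 1.5-fold for 3, *Capn2*, *Capns1* and *Cast*.

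**Figure D1:**
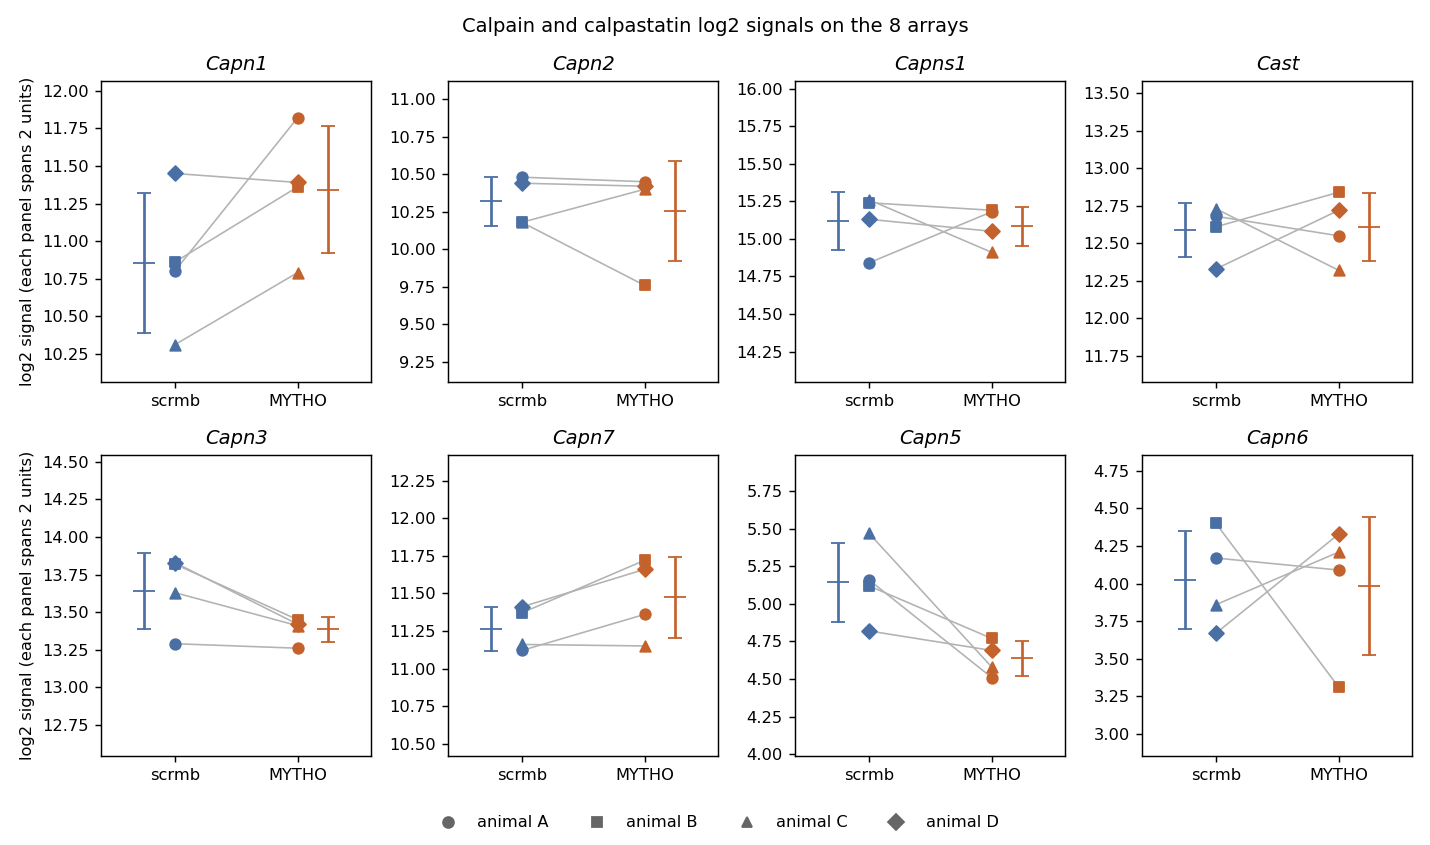
Log2 signal of each gene (vertical axis, 2 log2 units in every panel) on the scrmb and MYTHO arrays. Points are single arrays, grey lines join both legs of an animal, and the bars beside them are the mean and SD of 4 arrays. The groups are apart for *Capn5* and overlap in the other 7 panels.

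The catalytic subunit of calpain 1 had the largest positive difference of the family, in 3 of 4 animals. *Capn1* (Entrez gene 12333, chromosome 19 from 5988545 to 6015825 in GRCm38.p6, the assembly also called mm10) had log2 signals of 10.80, 10.86, 10.31 and 11.45 in scrmb A to D. In MYTHO A to D they were 11.82, 11.36, 10.79 and 11.39. The MYTHO leg was higher by 1.02, 0.50 and 0.48 in animals A, B and C and lower by 0.06 in animal D, whose scrmb array was the highest of its group. The scrmb mean was 10.86 ± 0.47 (SD, n = 4) and the MYTHO mean 11.34 ± 0.42 (SD, n = 4), so the difference of 0.49 on the log2 scale was about the size of the spread within each group. The limma standard error was 0.27, the 95% interval ran from -0.11 to 1.08, a fold of 0.929 to 2.11, and the limma adjusted p was 0.502. Blocking on animal narrowed the standard error to 0.21 and left the limma adjusted p at 0.397. Without scrmb D it was 0.68 (limma unadjusted p 0.0237, adjusted p 0.261), and without MYTHO C it was 0.67 (limma unadjusted p 0.0303, adjusted p 0.405). Without scrmb C it was 0.30, less than with all arrays by over 1.5 times, with a limma adjusted p of 0.774. The range over the 8 arrays, 1.51, was the widest of the 8 genes, and the within-group SD of *Capn1*, 0.45, was above that of 81.8% of rows.

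The other parts of the conventional calpain system changed by less than 0.1 on the log2 scale. *Capn2* (Entrez gene 12334, chromosome 1 from 182467253 to 182517610), the catalytic subunit of calpain 2, had log2 signals of 10.48, 10.18, 10.18 and 10.44 in scrmb A to D. In MYTHO A to D they were 10.45, 9.76, 10.40 and 10.42. Only MYTHO B lay outside the scrmb range. The log2 fold change was -0.06 with a 95% interval of -0.50 to 0.38 and a limma adjusted p of 0.935. Without MYTHO B the value changed sign, to 0.10, and without scrmb D it was -0.02.

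*Capns1* (Entrez gene 12336, chromosome 7 from 30186934 to 30198883), the small subunit that both conventional enzymes need, had log2 signals of 14.84, 15.24, 15.26 and 15.13 in scrmb A to D. Its MYTHO signals were 15.18, 15.19, 14.91 and 15.05, all inside the scrmb range. The log2 fold change was -0.04, which is a fold of 0.976 with a 95% interval of 0.75 to 1.27, and the limma adjusted p was 0.961. The value changed sign, to between 0.01 and 0.02, without scrmb B, scrmb C or MYTHO C. It was the steadiest of the family, with a range of 0.42 over the 8 arrays.

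*Cast* (Entrez gene 12380, chromosome 13 from 74692366 to 74808874), whose product calpastatin blocks calpain 1 and calpain 2, had log2 signals of 12.68, 12.61, 12.73 and 12.33 in scrmb A to D. Its MYTHO signals were 12.55, 12.84, 12.32 and 12.72. The MYTHO leg was higher in animals B and D and lower in A and C. The log2 fold change was 0.02, a fold of 1.01 with a 95% interval of 0.768 to 1.34, and the limma adjusted p was 0.981. The value changed sign without scrmb D (-0.07), MYTHO B (-0.06) or MYTHO D (-0.02). The RefSeq promoter windows searched here cover 4 starts of *Cast*, which need not be all of them, and the single row does not separate its transcripts.

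**Figure D2:**
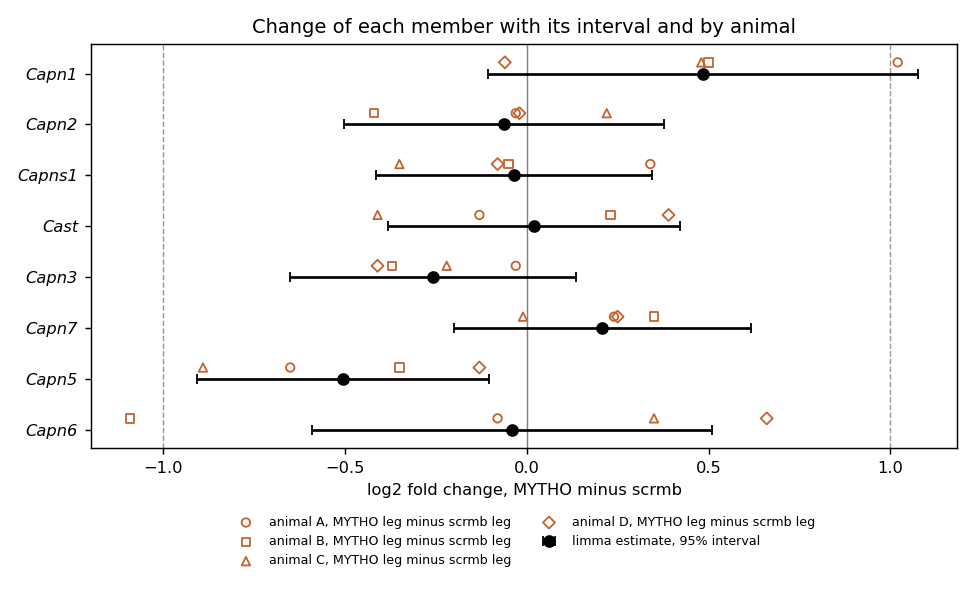
Log2 fold change of each gene, MYTHO minus scrmb (horizontal axis). Black points and bars are the limma estimate and its 95% interval over 8 arrays, open symbols are the differences between both legs of animals A to D, and dashed lines mark a 2-fold change. The interval of *Capn5* lies below 0, that of *Capn1* crosses the upper dashed line at 1.08, and the remaining 6 intervals hold 0 and stay within the dashed lines.

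The muscle calpain had a small difference in 1 direction. *Capn3* (Entrez gene 12335, chromosome 2 from 120463593 to 120504919) had log2 signals of 13.29, 13.82, 13.63 and 13.83 in scrmb A to D. In MYTHO A to D they were 13.26, 13.45, 13.41 and 13.42. The MYTHO leg was lower in 4 of 4 animals, by 0.03, 0.37, 0.22 and 0.41, and the 10.8% of all rows that were lower in 4 of 4 animals is the background to that count. The scrmb array of animal A lay among the MYTHO arrays, and without it the groups did not overlap and the value was -0.38 (limma adjusted p 0.459). Without scrmb D, the highest array, it was -0.195 (limma adjusted p 0.702). Over all arrays the scrmb mean was 13.64 ± 0.25 (SD, n = 4) and the MYTHO mean 13.39 ± 0.09 (SD, n = 4). Their difference was -0.26 on the log2 scale, a fold of 0.837 with a 95% interval of 0.637 to 1.10, and the limma adjusted p was 0.609. A loss of more than 36.3% of the *Capn3* signal therefore lies outside the interval, and so does a gain of more than 9.78%.

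Slow fibre genes varied widely between the same arrays. The mean log2 signal of 8 such genes (*Myh7*, *Myl2*, *Myl3*, *Tnnt1*, *Tnni1*, *Tnnc1*, *Atp2a2* and *Tpm3*) was 13.70 in scrmb A and between 11.61 and 11.94 in the other scrmb arrays, and it was 11.68 in MYTHO D and between 14.43 and 14.88 in the other MYTHO arrays. These genes were listed knowing that they varied between these arrays, so counts over them are no test. The mean of the list was higher in the MYTHO leg by 1.18, 2.52, 2.87 and 0.08 in animals A to D. Of these 8, 7 were higher in MYTHO muscle at a limma unadjusted p under 0.05, against 4.81% of all rows. With animal as a block 8 were, beside 12.6% of all rows in either direction in that fit. None passed after adjustment in either fit. The scrmb array with the lowest *Capn3* signal, A at 13.29, was the one with the highest slow fibre mean of its group. MYTHO A had the highest slow fibre mean of the 8 arrays, 14.88, and the lowest *Capn3* signal, 13.26. MYTHO D, with a low slow fibre mean, had a *Capn3* signal of 13.42, close to the 13.45 and 13.41 of MYTHO B and C. The part of fibre make-up in the *Capn3* values was not tested.

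The RefSeq promoter windows searched here cover 2 starts of *Capn3*, and the probe set is a single row that does not tell their transcripts apart. The windows around both are shown because calpain 3 is the member tied to muscle fibres, and muscle genes often carry binding motifs of the myogenic factors near their starts. Each window holds 250 bases before and 50 after the start, on the plus strand of GRCm38.p6, 5′ to 3′. Capitals mark matches to an E-box (CANNTG, bound by myogenic bHLH factors) or to the core of an MEF2 motif (CTA, any 4 bases, then TAG). The first lies at chr2:120463343-120463642 and the second at chr2:120476659-120476958.
Capn3 first start: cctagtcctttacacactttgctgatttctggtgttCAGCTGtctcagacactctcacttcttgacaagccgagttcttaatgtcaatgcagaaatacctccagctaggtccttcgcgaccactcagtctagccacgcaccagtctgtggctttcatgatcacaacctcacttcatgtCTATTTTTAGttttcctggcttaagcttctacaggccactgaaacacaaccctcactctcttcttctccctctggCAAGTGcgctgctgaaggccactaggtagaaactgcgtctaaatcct
Capn3 second start: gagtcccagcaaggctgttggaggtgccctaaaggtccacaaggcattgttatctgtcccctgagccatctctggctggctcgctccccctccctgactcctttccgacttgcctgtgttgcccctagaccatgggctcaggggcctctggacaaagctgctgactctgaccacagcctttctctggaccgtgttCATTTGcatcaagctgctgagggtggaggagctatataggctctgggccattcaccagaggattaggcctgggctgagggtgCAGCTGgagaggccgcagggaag

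The first window holds 1 MEF2 core and 2 E-boxes, and the second 2 E-boxes and no MEF2 core. Searched on both strands, 3.69% of all 32851 RefSeq promoter windows of this length hold an MEF2 core and 72.3% hold an E-box. Of the 12 windows of the family, from 7 of its 8 genes, 1 holds an MEF2 core and 9 hold an E-box. None holds GTAAACA, a motif bound by FoxO factors that 3.65% of all windows hold. No window of *Capn5* was in the table. In the windows printed here no motif match overlaps another.

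For comparison, the windows of *Capn1*, the other member with a difference above 0.25 among those with a strong signal, are of another kind. Both lie on the minus strand and are shown in the direction of transcription, at chr19:6015776-6016075 and chr19:6015198-6015497, with E-boxes and GC boxes (GGGCGG on either strand, held by 35.7% of all windows) in capitals.
Capn1 first start: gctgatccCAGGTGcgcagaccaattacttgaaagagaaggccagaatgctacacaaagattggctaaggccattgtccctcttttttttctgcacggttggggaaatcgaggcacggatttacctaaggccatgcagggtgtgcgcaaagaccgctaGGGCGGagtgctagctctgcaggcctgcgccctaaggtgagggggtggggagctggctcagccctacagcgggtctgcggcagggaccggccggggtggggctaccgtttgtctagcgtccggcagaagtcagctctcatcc
Capn1 second start: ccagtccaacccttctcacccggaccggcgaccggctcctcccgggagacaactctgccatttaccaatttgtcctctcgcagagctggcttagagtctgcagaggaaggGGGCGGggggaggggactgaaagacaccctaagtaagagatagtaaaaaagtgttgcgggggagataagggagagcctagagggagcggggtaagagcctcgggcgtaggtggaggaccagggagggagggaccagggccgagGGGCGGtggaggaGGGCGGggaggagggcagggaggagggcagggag

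The second *Capn1* window holds 3 GC boxes and no E-box, and the first holds 1 of each. The dinucleotide CG occurs 15 and 14 times in the *Capn1* windows and 6 and 4 times in those of *Capn3*, beside a median of 7 over all windows. The exact TATA box string TATAAA is found in none of the 12 windows of the family and in 13.6% of all windows. Variants of it, such as the TATATA in the second *Capn3* window, were not searched. These matches describe the sequence and were not set against the changes.

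The remaining members are calpains without the usual calcium-binding end domain of the conventional enzymes. *Capn7* (Entrez gene 12339, chromosome 14 from 31336622 to 31371987) encodes a calpain that binds the ESCRT-III machinery of endosomes. Its log2 signals were 11.12, 11.37, 11.16 and 11.41 in scrmb A to D. In MYTHO A to D they were 11.36, 11.72, 11.15 and 11.66. The MYTHO leg was higher by 0.24, 0.35 and 0.25 in animals A, B and D and lower by 0.01 in animal C. The log2 fold change was 0.21 with a 95% interval of -0.20 to 0.62 and a limma adjusted p of 0.708. Without MYTHO B it was 0.125 and without MYTHO C 0.315, with limma adjusted p of 0.881 and 0.557.

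*Capn5* (Entrez gene 12337, chromosome 7 from 98121559 to 98178946) was the member with the largest negative difference, but at a weak signal. Its log2 signals were 5.16, 5.12, 5.47 and 4.82 in scrmb A to D. In MYTHO A to D they were 4.51, 4.77, 4.58 and 4.69. Every MYTHO array lay below every scrmb array, which was so, in this direction, for 3.87% of all rows, and the gap between the nearest of them was 0.05. The scrmb mean was 5.14 ± 0.27 (SD, n = 4) and the MYTHO mean 4.64 ± 0.12 (SD, n = 4). They differed by -0.51 on the log2 scale, with a 95% interval of -0.91 to -0.10, a fold of 0.705. The limma unadjusted p was 0.0181, and 7.58% of all rows were lower at an unadjusted p under 0.05. The limma adjusted p was 0.296. With animal as a block the limma unadjusted p was 0.0312, and 12.6% of all rows had an unadjusted p under 0.05 in that fit. Leaving out scrmb C, the highest array, gave -0.40 with an unadjusted limma p of 0.0587 and a limma adjusted p of 0.542. Without scrmb D it was -0.61 with a limma adjusted p of 0.166. Its mean signal ranked at 19.7% of all rows from the lowest, and the table holds no detection calls, so how much of it is background was not tested.

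*Capn6* (Entrez gene 12338, X chromosome from 143802236 to 143827412) encodes a calpain that lacks the catalytic cysteine and is best known from embryonic muscle. Its log2 signals were 4.17, 4.40, 3.86 and 3.67 in scrmb A to D and 4.09, 3.31, 4.21 and 4.33 in MYTHO A to D. The differences between legs ran from -1.09 in animal B to 0.66 in animal D. The log2 fold change was -0.04 with a limma adjusted p of 0.972. It lay on the other side of 0 without MYTHO B (0.185), scrmb B (0.085) or scrmb A (0.01), and without scrmb D it was -0.16. Its mean signal ranked at 4.55% of all rows, the lowest of the family, whereas the mean signals of *Capn2*, *Capn1*, *Capn7*, *Cast*, *Capn3* and *Capns1* ranked from 86.1% to 98.2%. These ranks place each probe set within the arrays and do not order the transcripts by amount, since probes differ in brightness.

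RNA of cells other than muscle fibres was also read on these arrays. Of 13 marker genes of macrophages, endothelium, fibroblasts, adipocytes, satellite cells and blood, 1 was higher (*Pecam1*) and 1 lower (*Ptprc*) in MYTHO muscle at a limma unadjusted p under 0.05, beside 12.4% of all rows in either direction, and none passed after adjustment. With animal as a block 3 of the 13 had an unadjusted p under 0.05, beside 12.6% of all rows in that fit, the third being *Cd68* of macrophages, higher by 0.54 (limma unadjusted p 0.0332). The macrophage list did not go 1 way, since *Ptprc* was at -0.59 and *Adgre1* at 0.37. The mean of the endothelial genes *Pecam1* and *Cdh5* ran from 11.28 to 11.63 in scrmb and from 11.73 to 11.87 in MYTHO arrays, and neither gene overlapped between the groups on its own, as for 2.59% of all rows in this direction. Adipocyte genes (*Adipoq* and *Plin1*) ran from 4.77 to 9.01 and from 5.30 to 10.33, and haemoglobin genes from 13.36 to 15.96 and from 14.57 to 17.22. The ranges of the macrophage, fibroblast and satellite cell genes overlapped between the groups as well. No marker can be placed at 0, as the scale has no true 0. Their part in the calpain values was not tested.

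**Figure D3:**
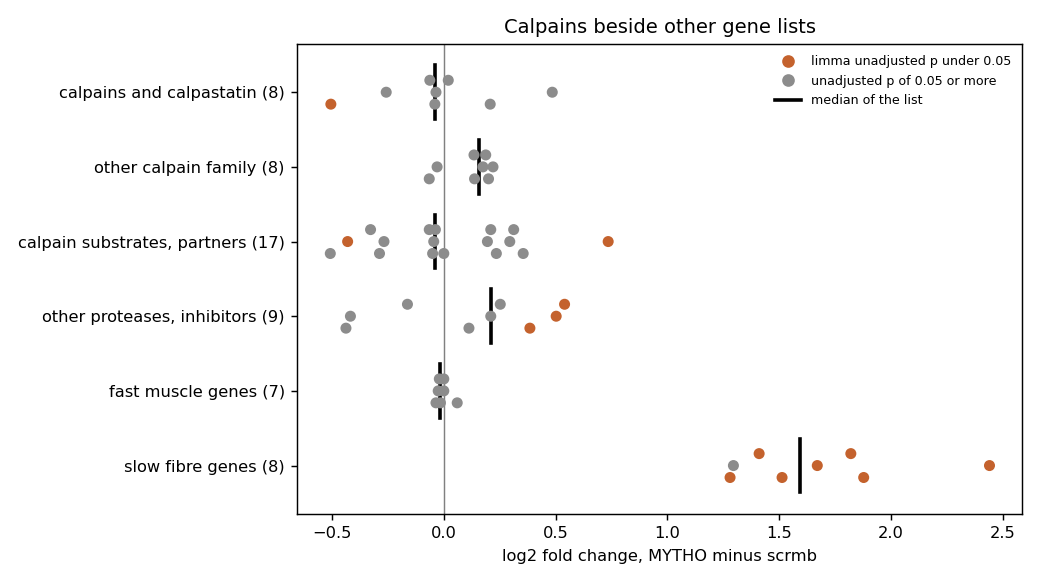
Log2 fold change, MYTHO minus scrmb (horizontal axis), of every gene in 6 lists, with the number of genes in brackets. Orange points have a limma unadjusted p under 0.05 and black bars are list medians. The list labelled fast muscle also holds *Acta1* and *Ckm*, which are not restricted to fast fibres. The 8 calpain system genes spread from -0.51 to 0.49 around a median of -0.04, while the slow fibre genes lie from 1.28 to 2.44.

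The 8 further calpain genes (*Capn8* to *Capn13*, *Capn15* and *Capns2*) had log2 fold changes of -0.07 (*Capn15*) to 0.22 (*Capn11*) with a median of 0.16. *Capn13* was at -0.03 and *Capn12* at 0.20, and the 95% intervals of *Capn11* and *Capn12* reached up to 0.72 and 0.76. No further calpain gene had an unadjusted p under 0.05, beside 12.4% of all rows, which with 8 genes is no result about them, and the lowest limma adjusted p among them was 0.756. Their group means lay between 3.86 and 6.23, below the median row of 6.40.

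Among 17 known substrates of calpains and partners of calpain 3 in muscle, 1 was higher and 1 lower at a limma unadjusted p under 0.05, and none passed after adjustment. That is close to the 12.4% of all rows in either direction, so the count is no result about the substrates. The higher one was *Sptan1*, αII-spectrin of the membrane skeleton, a textbook substrate of calpain 1 and calpain 2. Its log2 signals were 8.51, 9.05, 8.72 and 9.24 in scrmb A to D and 9.60, 9.80, 9.66 and 9.40 in MYTHO A to D. The groups did not overlap, as for 2.59% of all rows in this direction, and the MYTHO leg was higher in 4 of 4 animals, as for 8.94% of all rows. *Sptan1* was picked for its low unadjusted p, so neither is further support. The difference was 0.74 on the log2 scale (limma standard error 0.20), the limma unadjusted p was 0.00332 and the limma adjusted p was 0.174.

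The lower one was *Ctnnb1*, β-catenin of cell junctions and Wnt signalling. Its log2 signals were 12.71, 12.83, 12.62 and 12.61 in scrmb A to D and 12.60, 12.20, 12.06 and 12.19 in MYTHO A to D. The groups were 0.01 apart, and 3.87% of all rows were lower without overlap. The log2 fold change was -0.43 and the limma adjusted p was 0.356. *Tln1*, talin of integrin adhesions, also did not overlap, at 12.77 to 12.92 in scrmb and 12.37 to 12.71 in MYTHO arrays, with a difference of -0.27 and a limma adjusted p of 0.547. *Dysf*, dysferlin of membrane repair, was at 0.36 and *Ahnak*, its large partner that calpain 3 cuts, at -0.51, with limma adjusted p of 0.574 and 0.502. The median of the 17 genes was -0.04. *Ttn* and *Neb*, the giant proteins of the sarcomere, were at -0.07 and -0.04 with group means of 18.57 to 19.48, close to the ceiling of the arrays, and *Aldoa* was at the ceiling on all 8 arrays and gave no comparison. These values are of RNA and do not measure cleavage.

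Of 9 other proteases and protease inhibitors of muscle, 3 were higher at a limma unadjusted p under 0.05 and none lower, beside 4.81% and 7.58% of all rows, and none passed after adjustment. With animal as a block 2 of them remained, *Cstb* and *Casp8*, beside 12.6% of all rows in either direction in that fit. *Ctsb* had a limma unadjusted p of 0.0796 there. The highest were *Cstb*, the cathepsin inhibitor cystatin B, at 0.54, and *Casp8*, an initiator caspase, at 0.50. *Ctsb*, the lysosomal protease cathepsin B, was at 0.39. All 3 were higher in 4 of 4 animals, as were 8.94% of all rows. They were picked for a low unadjusted p in this direction, so that is no further support. The list was also chosen with earlier results known, so the count of 3 does not test it. Their limma adjusted p were 0.391, 0.344 and 0.394. The lowest were *Casp9* at -0.44 and *Ctsl*, cathepsin L, at -0.42, with limma adjusted p of 0.501 and 0.461. The median of the 9 was 0.21.

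The genes whose log2 signals followed each member most closely over the 8 arrays were sought among 21348 rows that name 1 gene and were below the ceiling on every array. They are given as a description, with no p, since each is the highest of so many correlations over so few arrays, which include both legs of each animal. For *Capn1* they were *Slc2a5* (Pearson's r 0.979, Spearman's rho 0.905) and *Wsb2* (0.967 and 0.881). For *Capn3* they were *Vldlr* (0.986 and 0.952) and *Zfp609* (0.970 and 0.952), and for *Capn5* the predicted genes Gm9327 (0.983 and 0.988) and Gm8906 (0.979 and 0.952). *Capn2* was followed by *Chil5* and *Rgn*, *Capns1* by *Smc4* and *Usp47*, *Cast* by *Tpsg1* and *Btf3l4*, *Capn7* by *Olfr8* and *Phf11a*, and *Capn6* by *Pydc3* and *Vit*, with r from 0.949 to 0.983. No gene of the family was among the rows most like another.

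**Figure D4:**
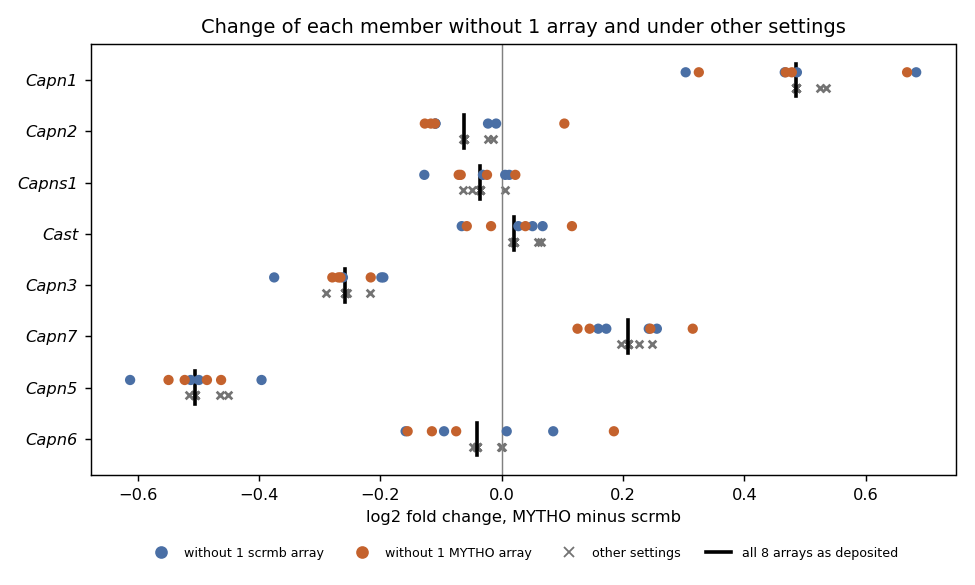
Log2 fold change, MYTHO minus scrmb (horizontal axis), of each gene with all 8 arrays as deposited (black bar), without each single array (points, coloured by the group of the array left out) and under 10 other settings (crosses; 8 for *Capn5* and *Capn6*, which filters on low signals removed). *Capn1*, *Capn3*, *Capn5* and *Capn7* keep their side of 0 in every fit shown, and the other 4 genes lie on both sides or at 0.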

How the data were processed

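The deposited values are log2 signals, 1 column per array, which the authors made from Clariom S Mouse arrays with the Transcriptome Analysis Console (TAC) version 4.0.1. The headers name gene-level SST-RMA (background correction, quantile normalization and median polish over probes) and annotation release 36 on mm10. Columns name the group and an animal number but no replicate of the labels. The group averages, fold changes and p-values that the authors also deposited were not used.

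Here limma version 3.58.1 in R version 4.3.3 (lmFit and eBayes, default settings, two-sided) was fitted to all 22206 rows without a block, as the array methods of the study name no pairing term, with Benjamini-Hochberg adjustment over all rows. The number of arrays, 4 per group, limits the precision, and p-values measure the spread between these 8 muscles. Both legs of an animal share its number, since the scrambled virus went into the opposite leg. Deviations from the group means correlated between legs of one animal, across rows, at 0.003, -0.001, 0.13 and 0.09 for animals A to D. Between legs of different animals these correlations ran from -0.17 to 0.10, so they do not settle whether pairing matters. The block on animal was run as an alternative. Other alternatives were quantile normalization, median centring, the upper 75% or 50% of rows by mean signal, trend and robust eBayes, array weights, no rows at the ceiling of 19.93, 1 row per symbol, and leaving out each array.

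Members and lists were chosen with earlier results of these data known. Named were all 8 members, the target, the 2 highest and 2 lowest of the calpain, substrate and protease lists, genes counted at 5 or fewer, and the 2 rows most like each member. Also named were *Ttn*, *Neb* and *Aldoa*, near or at the ceiling. For marker lists symbols were given, with values for the macrophage genes. The fibroblast markers were *Pdgfra* and *Col1a1*, the satellite cell markers *Pax7* and *Myf5*, and the haemoglobin genes *Hbb-bs* and *Hba-a1*. Genes were matched by the symbols of the file, 71 of 71, and 1 further marker list is not reported here. Promoter windows are RefSeq sequence of GRCm38.p6.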

Additional observations from a re-analysis of the deposited data

Results flagged for a closer look

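Of 18 groups of 4 arrays, covering the 8 genes and the target, 2 had 1 array whose gap to its nearest neighbour, as a share of the range of the group, exceeded Dixon's 95% critical value for 4 samples. About 1 group in 20 does so by chance. In MYTHO muscle *Capn2* was 9.76 in animal B against 10.40 to 10.45 in the other animals, a gap share of 0.928. The same array had the lowest *Capn6* signal, 3.31. The D230025D16Rik signal of MYTHO C was 8.80 against 8.08 to 8.20, a gap share of 0.833, so the target was left highest in animal C. The causes were not tested.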

How the results depend on the processing

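The target was called under all 18 alternatives, with a log2 fold change of -2.98 to -2.74. No member passed an adjusted p of 0.05 or the 2-fold threshold under any alternative. The number with an unadjusted p under 0.05 was 1, and it was 0 in the upper 75% and in the upper 50% of rows, both of which leave out *Capn5* and *Capn6*. Without single arrays it ran from 0 (without scrmb C) to 2 (without scrmb D or MYTHO C, with *Capn1* added). The number whose groups did not overlap was 1, likewise 0 in the upper 75% and the upper 50% of rows, and ran from 1 to 2 without single arrays, with *Capn3* added without scrmb A. With the replicate block by animal, *Capn1* had an unadjusted limma p of 0.0504 and a limma adjusted p of 0.397. In that fit 1 member had an unadjusted p under 0.05, beside 12.6% of all rows, and 0 passed after adjustment. The block changed no call of a member. The median log2 fold change of the members ran from -0.07 to 0.02 without single arrays.

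Signs reversed only for genes near 0. After median centring *Capn6* was at 0 and *Capns1* at 0.005. When single arrays were left out, *Capn6* lay between -0.16 and 0.19, *Capns1* between -0.13 and 0.0225, *Cast* between -0.0658 and 0.12, and *Capn2* between -0.13 and 0.10, all on the log2 scale. The cause was not tested. Of 140 values of the 8 genes under alternatives, 128 kept their direction and side. A second row for a member, planned as an alternative, could not be tried because each has 1 row. Signals near the lower end of the scale limit *Capn5* and *Capn6*.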
